A study of Mus musculus with 42 samples.

Results

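Rested Th1 cells and naive CD4 T cells of the mouse were compared across all 4992 reporters of a cDNA array. The comparison sets 6 of the study's 21 samples side by side, chosen by their titles: rested Th1 samples 1 to 3 and naive samples 1 to 3, each measured on 2 arrays (a and b) that were averaged first. All 7 groups of the study hold 3 samples, and the other Th1 groups (effector and memory) and rested Th2 cells serve here only to place the difference. The comparison asks what separates a rested state from a naive one when only the rested cells have met antigen. Only those cells were also cultured under Th1 conditions, so antigen experience, culture and those conditions cannot be told apart here.

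Rested Th1 cells were naive cells stimulated in vitro for 4 days with antigen-presenting cells under Th1 conditions and then kept for 3 more days without those presenting cells. Their stated phenotype included CD44 high, CD45RB low and CD25 negative. Naive cells were taken from the spleen and their stated phenotype included CD44 low, CD45RB high and CD25 negative. Both groups, and the others, go back to AND T cell receptor/GFP double transgenic mice, whose T cells recognise a pigeon cytochrome C peptide on I-Ek, so all cells carry 1 engineered specificity. Effector Th1 cells are the cells at the end of the 4 days. Memory Th1 cells are rested cells moved into thymectomised, lethally irradiated hosts with T cell-depleted bone marrow and sorted after 4 to 12 weeks. Rested Th2 cells went through the same steps under Th2 conditions. The source field of every label names the thymus, where the growth protocol names the spleen; the protocol was followed. No label gives the age of the mice or says whether samples 1 to 3 came from separate animals or cultures. The p-values measure the spread within groups, pooled over all 7 groups of 3 samples, and that spread may be technical. In an RNA extract of many cells, fewer cells of a type and less RNA per cell cannot be told apart.

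A naive CD4 T cell is held in quiescence by transcription factors of the FOXO, KLF and BACH families and by signalling inhibitors, with low protein synthesis and a small cytoplasm. Stimulation through the T cell receptor induces growth, division and the genes of a helper lineage, and removal of antigen lets the cells leave the cell cycle. Rested effectors are the cells from which long-lived memory is drawn after transfer. They keep the adhesion and surface features of antigen experience.

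Array signals were radioactive spot intensities on a linear scale. A level below is log2(intensity + 1) after quantile normalization, a difference is a difference of such levels (1 unit is a doubling of intensity + 1, which understates the change of dim spots), ± after a difference is its standard error, and ± after a level is the SD of 3 samples. The median reporter had a level of 3.13, and no source used here gives the signal of an empty spot, so a dim level cannot be told from none. Within the groups, sample pairs correlated at r = 0.907 to 0.941 across reporters in rested Th1 and 0.942 to 0.966 in naive cells, and the median SD of a reporter was 0.410 in rested Th1 and 0.303 in naive cells. The ratio of array a to array b, spot by spot, formed patterns that samples shared: rested Th1 1, 2 and 3 shared theirs with rested Th2 1, 2 and 3, while naive 1 and 3 shared theirs with memory Th1 1 and 3 (r of 0.9974 or more within a pattern, 0.0453 or less outside). No pattern held both rested Th1 and naive samples, so a difference between these groups and a difference between array patterns cannot be told apart. The labels name no batch. Before normalization rested Th1 1 had the lowest median intensities of the series (5.74 and 5.91 on arrays a and b). Its 99th percentiles (402 and 373) were also the lowest. Those of rested Th1 2 were 592 and 586, those of rested Th1 3 were 1161 and 1277, and those of the naive arrays 724 to 1420.

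Of the 4992 reporters, 523 (10.5%) passed the test between rested Th1 and naive cells, limma's moderated test at a Benjamini-Hochberg adjusted p below 0.05, called here. Higher in rested Th1 were 231 (4.63%) and lower 292 (5.85%). All 3 rested Th1 samples lay above or below all 3 naive samples for 1321 reporters (26.5%), among them 518 of the 523. Differences of more than 2 log2 units were called for 50 reporters that were higher and 30 that were lower. All 3 same-numbered pairs differed in the same direction for 521 of the 523. For the 518 whose groups did not overlap, this follows from that separation and adds nothing to it. With the sample number as a block 1082 were called, 524 higher and 558 lower. The count fell to 325 with median centring in place of quantile normalization and to 268 with only these 2 groups in the fit; it was 319 without naive 1, 273 without naive 3 and 346 without rested Th1 1.

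**Figure D1:**
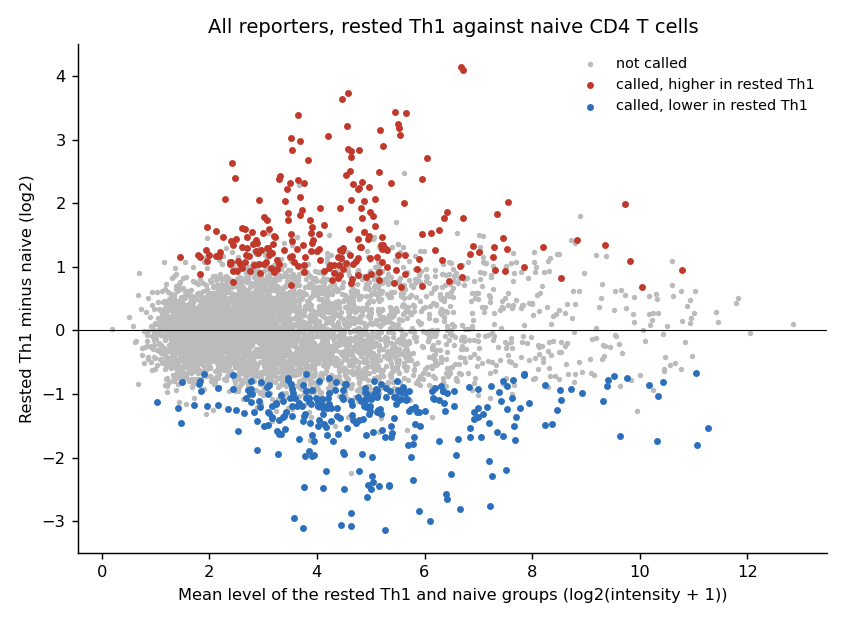
Each point is 1 of the 4992 reporters, with the mean level of both groups on the x axis (log2(intensity + 1)) and the difference, rested Th1 minus naive, on the y axis (log2). Red points are the 231 called reporters that were higher in rested Th1 and blue points the 292 that were lower; the called rises reach a difference of 4.15 and the called falls -3.13.

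A single gene was named for 408 of the called reporters, several genes for 26 and none for 89; the largest rise of all, 4.15, belongs to a reporter unnamed here. Taking each gene by its brightest reporter, 154 of 3230 genes (4.77%) were called higher and 215 (6.66%) lower. The median difference over all genes was -0.05, and -0.13 with median centring. Called falls and rises differed in level: the median of the falls was 4.08 in rested Th1 and 5.55 in naive cells, while that of the rises was 5.00 in rested Th1 and 3.36 in naive cells.

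The largest named rises were in Shisal1, Igsf10 and Fndc3a, each more than 3 units higher in rested Th1. Shisal1, a Shisa-like membrane protein gene, had levels of 6.83, 6.07 and 6.44 in the rested Th1 samples, against 2.37, 2.93 and 2.82 in the naive samples, a difference of 3.74 ± 0.33 (adjusted p = 5.18e-07). Igsf10, an immunoglobulin superfamily gene, stood at 5.73, 5.98 and 7.13 in rested Th1 cells and 2.62, 2.63 and 2.66 in naive cells, differing by 3.64 ± 0.35 (adjusted p = 1.09e-06). Fndc3a, which encodes a fibronectin type III domain protein, had 7.74, 7.38 and 7.01 in the rested Th1 samples, against 3.50, 4.35 and 4.01 in the naive samples, a difference of 3.42 ± 0.29 (adjusted p = 2.39e-07). For these genes the groups lay more than 2 units apart at their nearest samples. Lrpprc, a regulator of mitochondrial mRNA, stood at 7.42, 6.98 and 6.98 in rested Th1 cells and 3.87, 4.24 and 3.52 in naive cells (3.24 ± 0.40, adjusted p = 1.7e-05). Hdac1, a histone deacetylase, had 5.78, 5.64 and 7.07 in the rested Th1 samples, against 2.97, 2.79 and 3.08 in the naive samples (3.22 ± 0.35, adjusted p = 3.95e-06). Slc4a2, an anion exchanger, had 6.96, 6.80 and 6.28 in rested Th1 cells and 3.59, 4.14 and 3.58 in naive cells (2.91 ± 0.24, adjusted p = 2.22e-07).

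Rested Th1 samples were less even for several other large rises. Rested Th1 1 also had the dimmest arrays before normalization, and the part of this in its values was not tested. Itgb2, the beta chain of the leukocyte integrin LFA-1, had levels of 6.83, 4.21 and 4.01 in the rested Th1 samples, against 1.66, 2.36 and 1.96 in the naive samples, so rested Th1 1 stood well above the other two while the groups did not overlap (3.02 ± 0.59, adjusted p = 0.00216). Fosl2, an AP-1 transcription factor, followed the same order with 5.52, 3.32 and 2.20 in rested Th1 cells and 0.76, 1.70 and 1.39 in naive cells (2.40 ± 0.60, adjusted p = 0.014); its call was lost without rested Th1 1 and without naive 1 (adjusted p up to 0.0842). Deptor, an inhibitor of mTOR, had 6.83, 6.67 and 4.12 in the rested Th1 samples, against 3.50, 4.09 and 2.50 in the naive samples; the lowest rested sample was level with the highest naive one, and the call (2.51 ± 0.70, adjusted p = 0.0256) was lost without naive 1 or 3 or rested Th1 1 or 2 (adjusted p up to 0.146). The other 18 of the 20 largest rises kept their call without any 1 of the 6 samples. They include Arhgap6 (3.15), a GTPase-activating protein gene, Blzf1 (3.06), a golgin, Scamp1 (2.98) of secretory membranes, and Kcnj12 (2.86), a potassium channel. Unc5b (2.84), a netrin receptor, Bbs7 (2.82), a BBSome subunit, Nat8l (2.73), which makes N-acetylaspartate, Kank2 (2.37), an actin regulator, and 2610005L07Rik (2.38) complete them beside the genes described next.

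Genes of immune families also stood among these rises. Gzmd, a granzyme of the serine protease family, had 3.69, 3.83 and 3.70 in the rested Th1 samples, against 1.39, 1.09 and 0.85 in the naive samples, a dim gene with very little spread (2.63 ± 0.21, adjusted p = 2.22e-07). A second Gzmd reporter differed by 1.09 ± 0.29 (adjusted p = 0.0187). Granzyme genes of this cluster are near-identical in sequence, so a cDNA probe may report several of them. Gbp8, an interferon-inducible guanylate-binding protein gene with close relatives, stood at 7.25, 7.03 and 7.17 in rested Th1 cells and 5.15, 4.46 and 4.67 in naive cells (2.39 ± 0.47, adjusted p = 0.00197), while its dimmer second reporter differed by 0.53 ± 0.33 (adjusted p = 0.361).

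The 20 largest falls kept their calls in all 6 fits without 1 sample. Vps37b, a subunit of the ESCRT-I sorting complex, led them with levels of 3.60, 3.62 and 3.88 in the rested Th1 samples, against 6.24, 6.93 and 7.34 in the naive samples (-3.13 ± 0.38, adjusted p = 1.54e-05). Ifrd1, an immediate-early transcriptional co-regulator, had 4.22, 5.41 and 3.77 in rested Th1 cells and 7.31, 7.01 and 7.59 in naive cells (-2.84 ± 0.33, adjusted p = 9.69e-06). Stat3, the transcription factor downstream of IL-6 family cytokines, had 4.43, 4.93 and 5.92 in the rested Th1 samples, against 7.58, 7.64 and 8.03 in the naive samples (-2.66 ± 0.37, adjusted p = 7.11e-05), and a second reporter differed by -2.48 ± 0.23 (adjusted p = 9.2e-07). In each of these genes the highest rested Th1 sample stayed more than 1 unit below the lowest naive sample.

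Signalling and cytoskeletal genes formed part of the same set of falls. Prkci, an atypical protein kinase C, stood at 2.01, 1.81 and 2.48 in rested Th1 cells and 5.14, 4.51 and 5.51 in naive cells (-2.95 ± 0.33, adjusted p = 4.69e-06). Rhoa, the small GTPase that controls actin contractility, had 2.86, 2.84 and 3.92 in the rested Th1 samples, against 5.56, 5.94 and 6.71 in the naive samples (-2.87 ± 0.44, adjusted p = 0.000234). Ezr, which encodes ezrin and links membrane to actin, had 4.04, 3.62 and 3.95 in rested Th1 cells and 6.33, 5.86 and 6.27 in naive cells (-2.28 ± 0.31, adjusted p = 4.95e-05). The naive samples were the higher group for each, with no overlap. Among nuclear proteins, Hmgn2, which binds nucleosomes, differed by -2.57 ± 0.27, Eed, a Polycomb repressive complex subunit, by -2.47 ± 0.39, and Nasp, a histone chaperone, by -2.42 ± 0.27. The remaining large falls were Gm7993 (-2.81), Fam107b (-2.44), Morf4l2 (-2.44), Gpbp1 (-2.39), Bzw2 (-2.36) and Gdi2 (-2.28), a Rab GTPase regulator, with the others described by group. Over the gene lists that follow, 116 of 717 measured members were called, against 369 of all 3230 genes (4.77% higher and 6.66% lower). The lists were chosen with earlier results of these data known. Of the 116, 66 lost their call in at least 1 of the 6 fits without 1 sample.

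**Figure D2:**
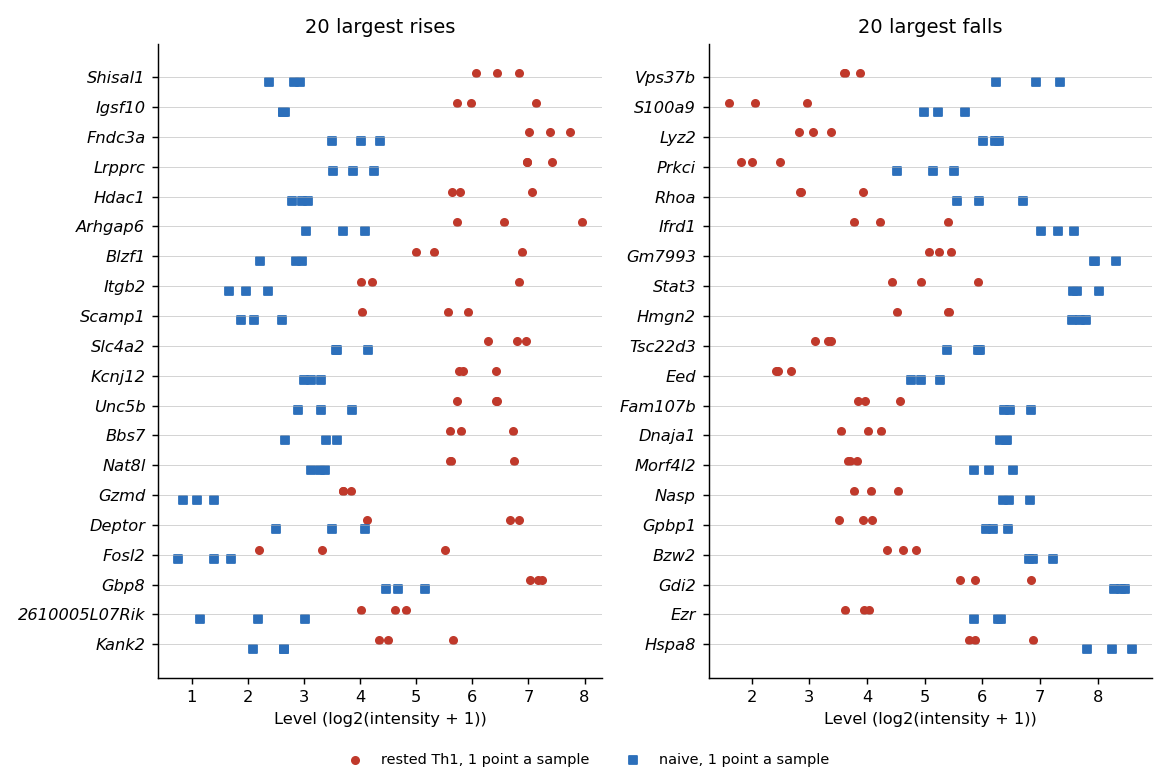
Levels (x axis, log2(intensity + 1)) of the 20 genes with the largest rises (left) and the 20 with the largest falls (right), 1 point a sample; red circles are rested Th1 and blue squares naive. The groups do not overlap in any of the 40 genes by the rule that chose them, and Itgb2, Fosl2, Blzf1 and Arhgap6 show 1 rested Th1 sample, number 1, well above the other two.

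Genes known to hold naive T cells quiescent moved in both directions. Of 23 measured, 4 fell (17.4%, against 6.66% of all genes) and 2 rose (8.70%, against 4.77%), with a median difference of -0.22. Tsc22d3, which encodes the glucocorticoid-induced protein GILZ, had 3.37, 3.09 and 3.32 in the rested Th1 samples, against 5.96, 5.39 and 5.93 in the naive samples (-2.50 ± 0.28, adjusted p = 4.69e-06). Foxo1, a transcription factor that drives Il7r in naive cells, had 4.03, 4.31 and 4.59 in rested Th1 cells and 5.71, 5.07 and 5.77 in naive cells (-1.21 ± 0.32, adjusted p = 0.0186). Bach2, a repressor of effector genes, stood at 2.84, 3.61 and 2.91 in the rested Th1 samples, against 4.54, 4.05 and 4.34 in the naive samples (-1.19 ± 0.25, adjusted p = 0.00401). Satb1, a chromatin organiser, was the smallest called fall of the list (-0.98 ± 0.29, adjusted p = 0.034), and its second reporter did not pass (-0.81 ± 0.37). The called rises were also genes that restrain activation or growth: Dgka, the diacylglycerol kinase that dampens receptor signalling, had 8.39, 8.25 and 8.41 in rested Th1 cells and 7.28, 7.22 and 7.54 in naive cells (1.00 ± 0.21, adjusted p = 0.00363), and Pdcd4, an inhibitor of translation, differed by 1.04 ± 0.28 (adjusted p = 0.0225). Txnip, a glucose uptake inhibitor high in resting cells, did not pass the test (-0.27, 95% confidence interval -0.70 to 0.16). Il7r, the IL-7 receptor chain, had 3.76, 5.44 and 3.04 in the rested Th1 samples, against 1.66, 3.52 and 2.94 in the naive samples and did not pass either (adjusted p = 0.345). The 6 calls came down to 3 without naive 1, without naive 3 or without rested Th1 1, and with median centring neither rise was called.

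Early-response and feedback genes had more called falls than rises. Of 17 measured, 6 fell (35.3%) and 1 rose (5.88%), with a median difference of -0.53. The list was chosen with earlier results of these data known, so its share of falls depends in part on that choice. It holds Vps37b, an ESCRT-I subunit with the largest named fall. Beside Vps37b and Ifrd1, Nfkbia, the NF-kappaB inhibitor that NF-kappaB itself induces, had 5.80, 6.11 and 6.33 in the rested Th1 samples, against 7.47, 7.62 and 7.77 in the naive samples (-1.54 ± 0.23, adjusted p = 0.000178), and a second reporter differed by -1.56 ± 0.33 (adjusted p = 0.00388). Rgs2, an inhibitor of G protein signalling, had 7.33, 8.10 and 7.48 in rested Th1 cells and 9.49, 8.84 and 9.0 in naive cells (-1.48 ± 0.35, adjusted p = 0.0105). Both genes were bright in both groups, and no rested sample reached a naive one. Dusp10, a phosphatase of p38 and JNK, differed by -1.18 ± 0.37 (adjusted p = 0.0451) and Rgs10, a further G protein regulator, by -1.12 ± 0.31 (adjusted p = 0.0273). Fosl2 was the rise. Fos (-0.64), Egr1 (-0.23) and Jun (0.27), the textbook immediate-early factors, did not pass. Without naive 1 the list had 3 calls, all of them falls.

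The promoter of Nfkbia is printed because this gene is the textbook case of a feedback target, and the array reports its transcript. The RefSeq window of 300 bases lies at chr12:55492598-55492897 on the minus strand of GRCm38.p6 and is read 5′ to 3′ from 250 bases before the start of the gene; capitals mark the only match, on either strand, to an NF-kappaB-like motif (3 G, any 2 bases, 3 T and 2 C in a row), at bases 222 to 231.
Nfkbia: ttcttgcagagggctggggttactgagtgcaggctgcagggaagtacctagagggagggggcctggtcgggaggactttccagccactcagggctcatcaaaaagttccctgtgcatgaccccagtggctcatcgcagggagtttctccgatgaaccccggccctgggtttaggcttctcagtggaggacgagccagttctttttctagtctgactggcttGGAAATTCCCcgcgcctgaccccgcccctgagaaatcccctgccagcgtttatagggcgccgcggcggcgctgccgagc
This motif is found in 1.63% of the 32851 promoter windows of the table. A match is a description of letters only and says nothing about binding in these cells.

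**Figure D3:**
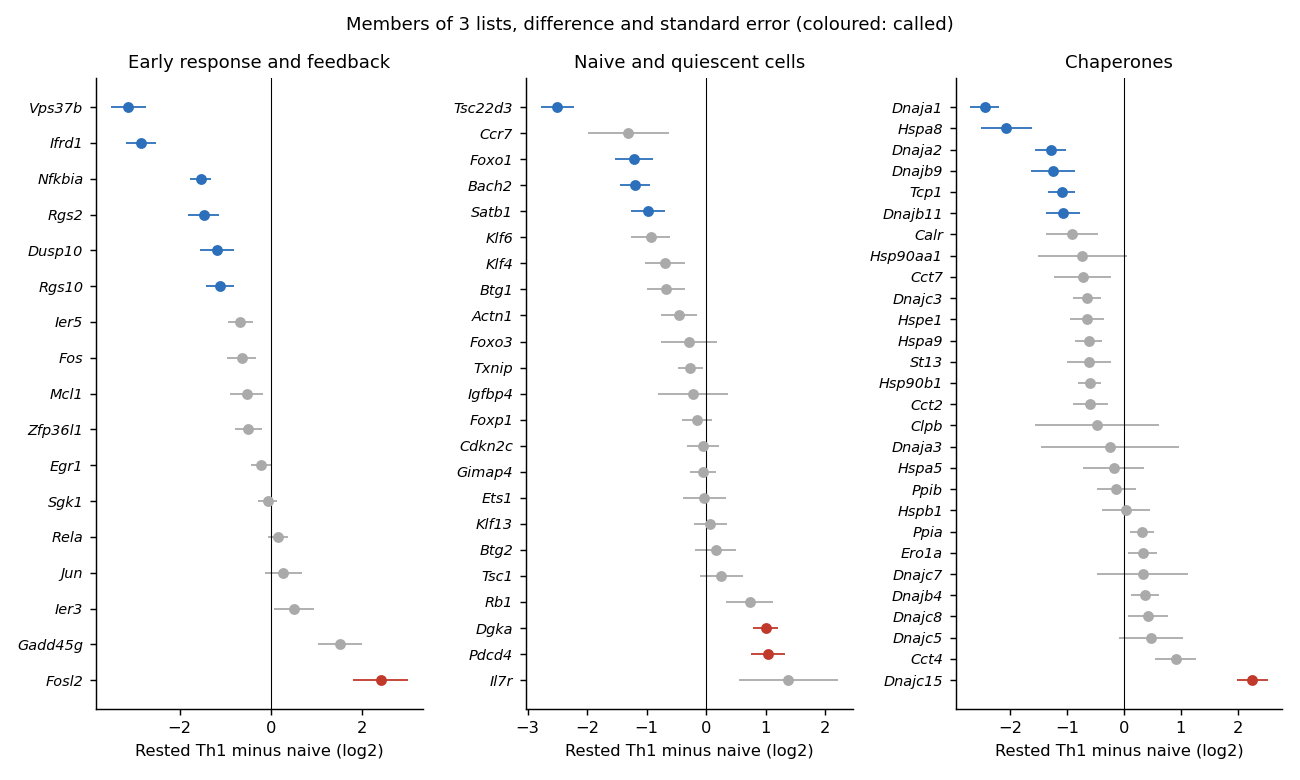
Differences, rested Th1 minus naive (x axis, log2), with standard errors for all measured members of 3 lists: 17 early-response and feedback genes, 23 genes of naive and quiescent cells, and 28 chaperones. Blue points are called falls, red points called rises and grey points did not pass the test; most called points lie left of 0, and Dnajc15 and Fosl2 are the called rises of over 2 units.

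Chaperones and translation factors also had more called falls than rises. Of 28 chaperone genes, 6 fell (21.4%) and 1 rose (3.57%), with a median of -0.59. Dnaja1, an Hsp40 co-chaperone, had 3.55, 4.24 and 4.02 in the rested Th1 samples, against 6.41, 6.30 and 6.43 in the naive samples (-2.44 ± 0.25, adjusted p = 2.39e-06); its second reporter differed by -2.21 ± 0.27 (adjusted p = 1.74e-05). Hspa8, the constitutive Hsp70, had 5.88, 5.76 and 6.87 in rested Th1 cells and 7.81, 8.25 and 8.60 in naive cells (-2.06 ± 0.44, adjusted p = 0.00412). Its 3 other reporters did not agree: 2 differed by -3.0 ± 0.52 and -2.21 ± 0.38, and the last by 1.36 ± 0.45 (adjusted p = 0.0584). Dnaja2 (-1.28), Dnajb11 (-1.07), Dnajb9 (-1.24) and Tcp1 (-1.09), a subunit of the chaperonin TRiC, were the other falls; second reporters of Dnaja2 (-0.08 ± 0.42) and Dnajb9 (-0.44 ± 0.37) did not pass. The rise was Dnajc15, a mitochondrial Hsp40, at 6.11, 5.85 and 5.77 in the rested Th1 samples, against 3.79, 3.49 and 3.70 in the naive samples (2.25 ± 0.27, adjusted p = 1.56e-05), with no overlap. The list had 5 to 8 calls without any 1 sample, and 2 rises and 11 falls with the sample number as a block.

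Of 26 translation factors, 7 fell (26.9%) and 2 rose (7.69%), with a median of -0.50. The elongation factor Eef1a1 had 6.98, 6.62 and 7.69 in rested Th1 cells and 8.29, 7.92 and 8.27 in naive cells (-1.06 ± 0.27, adjusted p = 0.0164). Eif3j1, a subunit of initiation factor 3, differed by -1.63 ± 0.35, Eif6, which keeps ribosomal subunits apart, by -1.09 ± 0.29, and Eef1g by -0.79 ± 0.24. Eef1e1 (-1.08), Eif4e2 (-0.97) and the release factor gene Gspt1 (-0.99) were the other falls, although none of the 5 other Eef1e1 reporters passed (-0.50 to 0.43, 3 of them positive). Eif2b5 (1.83 ± 0.53) and Eif4b (1.79 ± 0.56) rose, although a second Eif2b5 reporter differed by -0.67 ± 0.43. These 9 calls depended on the samples and the scaling: there was 1 without naive 3, 4 without naive 1 or without rested Th1 1, 5 without rested Th1 2, and 2, both falls, with median centring; with the sample number as a block there were 3 rises and 11 falls. Of 38 ribosomal protein genes, 3 fell (7.89%) and 0 rose by limma (1 at an unadjusted p below 0.05). Rpl7 (-1.75), Rps3a1 (-1.03) and Rpl27a (-0.78) were the falls. Genes of this family have many processed copies in the genome, so their probes may share signal. The list's median was -0.15, and -0.53 with median centring; there was no call without naive 3 (by limma), 1 without rested Th1 2 and 5 without rested Th1 3, and with the sample number as a block there were 2 rises and 7 falls.

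Splicing and RNA-binding genes fell in 10 of 76 cases (13.2%) and rose in 2 (2.63%), with a median of -0.26. Dhx15, a helicase that takes the spliceosome apart, had 5.88, 5.78 and 5.67 in the rested Th1 samples, against 7.42, 7.33 and 7.68 in the naive samples (-1.70 ± 0.26, adjusted p = 0.000176). Hnrnpu (-1.20), Hnrnpd (-1.38), Hnrnpa2b1 (-0.98), the core snRNP proteins Snrpd1 (-1.19) and Snrpb2 (-1.04), Sfpq (-1.09), Rbm18 (-1.59), Ddx20 (-1.01) and the poly(A)-binding protein gene Pabpc1 (-0.87, second reporter -1.06 ± 0.41) were the other falls, and Dhx8 (1.04) and Lsm14a (1.10) the rises. Their 12 calls were 5 without naive 1, 6 without naive 3 and 7 without rested Th1 1, and with the sample number as a block there were 10 rises and 16 falls. Proteasome genes fell in 5 of 30 cases (16.7%) and rose in 1 (3.33%). The falls were the catalytic core subunits Psmb5 (-0.95) and Psmb2 (-0.94), the core subunit Psma3 (-0.71), and the ATPases Psmc4 (-1.05) and Psmc5 (-1.08) of the regulatory particle. The rise was Psmg1 (1.07), an assembly chaperone. These 6 calls were 2 without naive 1 or naive 3 and 3 without rested Th1 1; with median centring there were 2 falls and 1 rise.

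**Figure D4:**
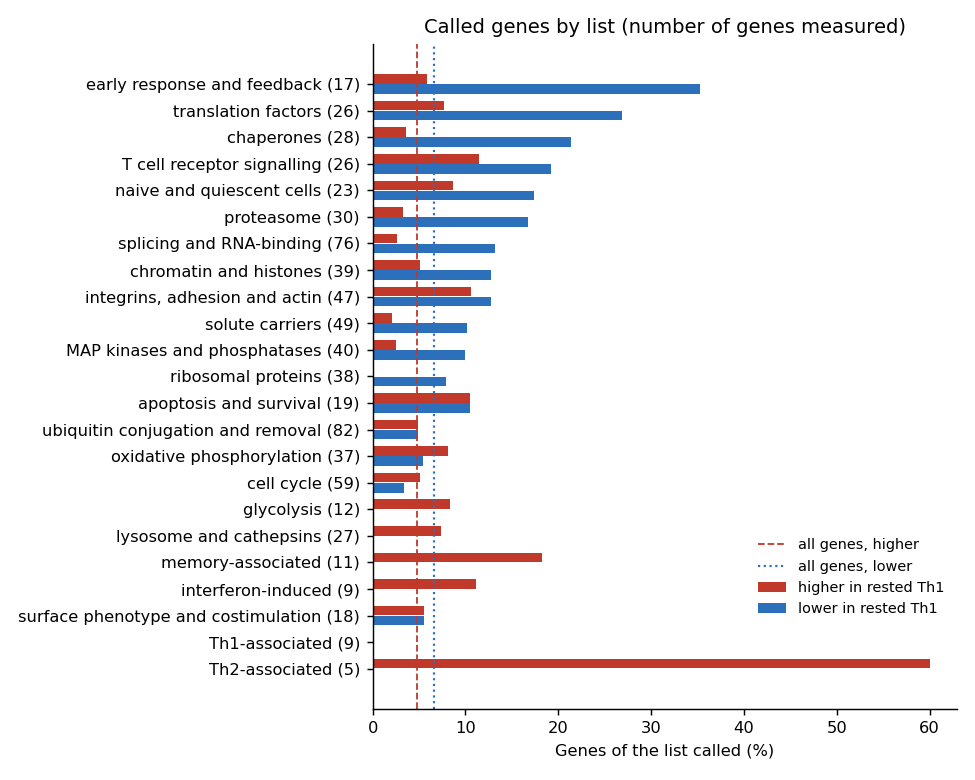
Share of the measured genes of each list other than the cell type marker lists (x axis, %) called higher (red) or lower (blue) in rested Th1 than in naive cells, with the number measured in brackets; the red dashed line is the share over all genes for rises (4.77%) and the blue dotted line that for falls (6.66%). Early-response and feedback genes (35.3%), translation factors (26.9%) and chaperones (21.4%) have the largest shares of falls among the lists drawn, and the Th1-associated genes have no call. The lists were chosen with earlier results of these data known.

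Actin and adhesion genes moved both ways. Of 47 measured, 5 rose (10.6%) and 6 fell (12.8%), and these were 4 and 3 without naive 3, 8 and 9 with the sample number as a block and 3 and 4 with median centring. Tmsb4x, the thymosin that binds actin monomers, had 10.61, 10.76 and 10.81 in the rested Th1 samples, against 8.71, 8.75 and 8.73 in the naive samples (2.00 ± 0.22, adjusted p = 4.69e-06). Pfn1, which encodes the monomer-binding profilin, had 5.09, 4.83 and 4.98 in rested Th1 cells and 2.70, 3.60 and 3.62 in naive cells (1.66 ± 0.38, adjusted p = 0.00737). Actb, beta-actin, differed by 1.42 ± 0.44 (adjusted p = 0.0451), and Actg1, gamma-actin, by -1.29 ± 0.38 (adjusted p = 0.034). The Actb call was lost in all 6 fits without 1 sample (adjusted p of 0.0567 to 0.17) and with median centring (0.251), and the Actg1 call in 4 of those fits (up to 0.199) and with median centring (0.0668). These paralogs are close in sequence, so their probes may share signal. Itga2b, an integrin of platelets, also rose (0.94 ± 0.23). Falls beside Rhoa and Ezr were Rdx (-1.12, second reporter -0.86 ± 0.44), which encodes radixin, a close relative of ezrin, Capza2 (-0.95), which caps actin filaments, and Cytip, an integrin regulator of lymphocytes, at 6.49, 6.63 and 7.30 in the rested Th1 samples, against 8.85, 8.33 and 8.43 in the naive samples (-1.73 ± 0.26, adjusted p = 0.000179).

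Memory-associated genes rose in 2 of 11 cases (18.2%) and fell in 0 by limma (0 at an unadjusted p below 0.05). Lgals1, galectin-1, which activated T cells secrete, had 8.08, 7.76 and 8.04 in the rested Th1 samples, against 6.58, 6.42 and 6.92 in the naive samples (1.32 ± 0.21, adjusted p = 0.00032), and the other was Itgb2. Despite its place in this list, Itgb2 had its lowest mean in memory Th1 cells. It stood at 2.00 ± 0.35 in naive, 2.22 ± 0.22 in effector, 5.02 ± 1.57 in rested and 1.06 ± 0.82 in memory Th1 cells. Among 18 surface and costimulation genes, Ly6e rose (5.56%) and Cd24a fell (5.56%). Ly6e, an interferon-inducible Ly6 family gene, had 8.14, 8.65 and 8.89 in rested Th1 cells and 6.20, 6.48 and 6.93 in naive cells (2.02 ± 0.28, adjusted p = 6.2e-05), while its much dimmer second reporter differed by 0.36 ± 0.42. Cd24a, a glycoprotein of immature lymphocytes, differed by -1.20 ± 0.37 (adjusted p = 0.0408), a call lost without any 1 of the samples but rested Th1 1. Ccr7, the lymph node homing receptor of naive cells, was dim, with 1.33, 0.93 and 1.59 in the rested Th1 samples, against 1.37, 3.09 and 3.32 in the naive samples (-1.31 ± 0.68, adjusted p = 0.261). Genes for CD44, CD45 and CD25, which belong to the stated phenotypes, were not analysed here. Ly6e was also the only called member of 9 interferon-induced genes (11.1%). With the sample number as a block more were called in these lists: 4 rises of the memory-associated genes, 5 rises and 1 fall of the surface genes, and 2 rises and 1 fall of the interferon-induced genes.

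None of the 9 Th1-associated genes was called by limma, and none at an unadjusted p below 0.05. Gzma, a cytotoxic granzyme, was bright in both groups, with 6.43, 6.44 and 6.27 in rested Th1 cells and 6.76, 6.32 and 6.48 in naive cells, a difference of -0.14 (95% confidence interval -0.70 to 0.41). Gzmb differed by -0.29 (-1.24 to 0.66), and its level was 2.19 ± 0.33 in rested Th1 and 6.08 ± 1.11 in effector Th1 cells. Prf1, perforin, differed by 0.01 (-0.46 to 0.48) at levels under the median reporter. Ifng and Tbx21, the defining genes of the lineage, were not analysed here. Of 5 Th2-associated genes, 3 rose (60.0%) and 0 fell by limma (0 at an unadjusted p below 0.05). The cytokine Il13 had 2.83, 1.90 and 3.96 in the rested Th1 samples, against 1.37, 1.14 and 1.5 in the naive samples (1.56 ± 0.41, adjusted p = 0.0179), with rested Th1 3 the highest. Il24, a cytokine of the IL-10 family, had 4.60, 2.76 and 2.90 in rested Th1 cells and 2.18, 1.55 and 1.69 in naive cells (1.61 ± 0.39, adjusted p = 0.0107), with rested Th1 1 the highest. Rnf128, the anergy-associated ubiquitin ligase GRAIL, stood at 2.66, 4.05 and 3.59 in the rested Th1 samples, against 2.03, 1.92 and 1.93 in the naive samples (1.47 ± 0.35, adjusted p = 0.0107). All of these are dim, and each call was lost in at least 1 fit without 1 sample (adjusted p up to 0.0876, 0.0637 and 0.0642). In rested Th2 cells Il13 stood at 1.47 ± 0.24 and Il24 at 2.01 ± 0.59, close to their naive means of 1.34 and 1.81. Rnf128 stood at 3.61 ± 0.28 in rested Th2 cells, against 1.96 in naive cells. The differences of rested Th1 from rested Th2 cells did not pass for Il13 (1.43 ± 0.41, limma adjusted p = 0.176) or Il24 (1.41 ± 0.39, limma adjusted p = 0.145). What these rises mean for lineage was not tested.

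Receptor signalling genes fell in 5 of 26 cases (19.2%) and rose in 3 (11.5%). Beside Prkci and Rhoa, Calm2, calmodulin, had 4.74, 3.97 and 3.80 in the rested Th1 samples, against 5.47, 5.53 and 5.68 in the naive samples (-1.39 ± 0.28, adjusted p = 0.0025), Mapk14, the p38 kinase, differed by -1.16 ± 0.21 (adjusted p = 0.00123) and Prkcd, a further protein kinase C, by -0.90 ± 0.26 (adjusted p = 0.0314). Akt1, the kinase of the PI3K pathway, had 4.91, 4.68 and 4.82 in rested Th1 cells and 3.64, 3.14 and 3.06 in naive cells (1.52 ± 0.33, adjusted p = 0.00524). Map2k2, the ERK kinase MEK, differed by 1.04 ± 0.30 (adjusted p = 0.0279), and Dgka was the other rise. Of 40 MAP kinase and phosphatase genes, 4 fell (10%) and 1 rose (2.50%); the phosphatase catalytic subunit Ppp1cb (-1.45 ± 0.23) and its inhibitor Ppp1r2 (-1.08 ± 0.29) were the falls not yet named. That list had 2 calls without naive 1, 3 without naive 3 or without rested Th1 2, 3 with median centring, all falls, and 1 rise and 7 falls with the sample number as a block.

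Cell cycle genes, by contrast, were near the background: of 59 measured, 3 rose (5.08%) and 2 fell (3.39%). Top2a, the topoisomerase of dividing cells, had 3.47, 3.20 and 2.58 in the rested Th1 samples, against 3.75, 3.48 and 3.23 in the naive samples, a difference of -0.41 (95% confidence interval -0.91 to 0.10), and its level in effector Th1 cells was 6.70 ± 0.11. Ccnb2, a mitotic cyclin, stood at 2.65, 1.66 and 2.16 in rested Th1 cells and 1.92, 2.15 and 2.18 in naive cells (0.07, -0.61 to 0.76), and at 5.68 ± 0.45 in effector Th1 cells. Cdk1, the mitotic kinase, differed by 0.44 (-0.07 to 0.96), with 5.24 ± 0.20 in effector Th1 cells. These intervals hold the differences of all 3 genes to within 1 unit either way. Against effector Th1 cells, 19 of the 59 were lower in rested Th1 and 4 higher (9.85% and 7.40% of all genes were called lower and higher in that comparison). The called differences from naive cells were Ccng1 (1.65 ± 0.31), a p53 target, Orc2 (1.25 ± 0.37) of the origin recognition complex and Rangap1 (1.13 ± 0.33) of nuclear transport, which rose, and Gmnn (-1.28 ± 0.23), the licensing inhibitor geminin, and Cenpa (-1.31 ± 0.37), the centromeric histone, which fell. A second Rangap1 reporter differed by 0.31 ± 0.23 and did not pass. These 5 calls were 3 without naive 1, 2 without naive 3 or rested Th1 1, 1 in each direction with median centring, and 7 rises and 4 falls with the sample number as a block.

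Metabolic genes changed singly. Aldoa, a glycolytic aldolase, had 5.83, 5.97 and 6.04 in the rested Th1 samples, against 3.77, 4.09 and 4.57 in the naive samples (1.80 ± 0.35, adjusted p = 0.00175), and its 2 other reporters differed by 1.31 ± 0.32 and 0.87 ± 0.25, both called. It was the only call among 12 glycolysis genes (8.33% higher, 0 lower by limma and 0 at an unadjusted p below 0.05), 11 of which had a positive difference; with the sample number as a block there were 2 rises. Of 37 oxidative phosphorylation genes, Ndufv3 (0.89), Ndufb5 (0.79, second reporter 0.20 ± 0.28) and Atp5j2 (0.78) rose (8.11%), and Cycs, cytochrome c (-1.40 ± 0.24), and Cox4i1, of cytochrome oxidase (-1.64 ± 0.29), fell (5.41%). No member was called higher without naive 2, without rested Th1 1 or with median centring, and 1 was without naive 1 or 3 or rested Th1 2 or 3. Of 49 solute carrier genes, Slc4a2 rose (2.04%) and 5 fell (10.2%): Slc5a6, the biotin and pantothenate carrier (-1.92 ± 0.33), Slc25a3, the mitochondrial phosphate carrier (-1.59 ± 0.38), Slc9a3r1 (-1.42 ± 0.41), an ezrin-binding scaffold that the symbol places here, Slc38a2 (-1.26 ± 0.33), an amino acid transporter, and Slc14a1 (-0.86 ± 0.26). The falls of this list were 1 without naive 3, without rested Th1 1 or with median centring, and with the sample number as a block there were 6 rises and 5 falls.

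Chromatin genes held 2 rises, Hdac1 and Smarca2 (0.97 ± 0.27), a SWI/SNF ATPase, and 5 falls among 39 (5.13% and 12.8%). A second Smarca2 reporter differed by -0.62 ± 0.46 (adjusted p = 0.469). Hmgn1 (-1.97 ± 0.32) fell with its relative Hmgn2, and H3f3b (-0.69 ± 0.19), which encodes the replacement histone H3.3, fell least; the list's 7 calls were 4 without naive 1, naive 3 or rested Th1 1, and 3 rises and 8 falls with the sample number as a block. Among 19 apoptosis genes (10.5% in each direction), the inhibitor genes Birc3 and Birc6 went opposite ways. Birc3 had 5.03, 4.19 and 5.47 in the rested Th1 samples, against 6.44, 6.42 and 7.19 in the naive samples (-1.78 ± 0.33, adjusted p = 0.00137), and Birc6 had 7.62, 7.58 and 7.62 in rested Th1 cells and 5.74, 6.42 and 5.35 in naive cells (1.77 ± 0.32, adjusted p = 0.00112). Pdcd4 and Dad1 (-0.95 ± 0.29), an oligosaccharyltransferase subunit, made up the 4 calls, which were 2 without naive 3, without rested Th1 1 or with median centring. Ubiquitin pathway genes were called at background rates, 4 of 82 each way (4.88%), with the falls of Cul3 (-1.61; another of its reporters differed by -0.31 ± 0.33), Rnf14 (-1.24), Usp38 (-0.94) and Usp33 (-0.79) and the rises of Trim44 (1.93), Trim30d (1.35), Rnf128 and Usp5 (0.90). That list had 4 calls without naive 3, 5 without rested Th1 2, and 3 rises and 2 falls with median centring. The lysosome genes Lgmn (1.12 ± 0.27), a protease, and Glb1 (1.21 ± 0.29), a galactosidase, rose among 27 (7.41%), with 0 falls by limma and 4 at an unadjusted p below 0.05; there was 1 call without naive 1 or rested Th1 2, and with the sample number as a block there were 4 rises and 3 falls. A second Lgmn reporter differed by 0.02 ± 0.30.

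Some markers of other cell types differed between these groups, in both directions, and others did not pass. Lyz2, lysozyme of myeloid cells, had 3.38, 3.06 and 2.82 in the rested Th1 samples, against 6.21, 6.01 and 6.29 in the naive samples (-3.08 ± 0.31, adjusted p = 2.39e-06). Fcer1g, the signalling chain of Fc receptors, had 4.27, 3.32 and 3.03 in rested Th1 cells and 5.77, 5.27 and 5.40 in naive cells (-1.94 ± 0.34, adjusted p = 0.00072). S100a9, the calprotectin subunit of granulocytes, had 1.60, 2.05 and 2.95 in the rested Th1 samples, against 5.23, 4.99 and 5.69 in the naive samples (-3.10 ± 0.33, adjusted p = 3.1e-06). In all of these the naive samples were higher with no overlap. Across the 11 myeloid and dendritic cell markers, 2 were lower (18.2%, against 6.66% of all genes) and 1 (Lgmn) higher (9.09%, against 4.77%). Of the 11, 6 had a positive and 5 a negative difference, with a median of 0.05. Their summed linear level was 271 to 435 in rested Th1 and 302 to 382 in naive samples. Of 4 granulocyte markers only S100a9 was called (25.0% lower). Their sum went the other way, with 342 to 458 in rested Th1 and 251 to 341 in naive samples. Csf3r, the largest part of that sum, differed by 1.08 (limma, adjusted p = 0.114). The myeloid integrin gene Itgam stood at 1.73 ± 0.51 in rested Th1 and 1.25 ± 0.61 in naive cells, below the median reporter in both. No marker was at 0, and the part of such cells in the results above was not tested.

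The fibroblast and stromal list was included because such lines can present antigen. It had 2 rises among 12 (16.7%, against 4.77% of all genes), Sparc (1.60 ± 0.36) and Pdgfrb (1.02 ± 0.32). Its sums were 139 to 255 in rested Th1 and 138 to 181 in naive samples. Each of the 6 fits without 1 sample had 1 call, as did median centring. Second reporters of both genes did not pass. Its collagen and decorin members were not called. All 3 thymocyte markers, Cd1d1 (-1.09 ± 0.31), Cd24a and Satb1, were lower in rested Th1 (100%, against 6.66% of all genes). Their sums were 92.6 to 171 in rested Th1 and 203 to 274 in naive samples. That list had no call by limma without naive 1, naive 3 or rested Th1 2, 1 without rested Th1 1 and 1 with median centring. Itga2b was the only call among 5 erythroid and platelet markers, and was not called with median centring. The B cell gene Blnk was not called (-0.72 ± 0.38), nor were the 2 CD8 T and NK cell markers. The labelled cell type could be checked only through Cd247, the CD3 zeta chain, which stood at 1.73 ± 0.25 in rested Th1 and 1.85 ± 0.32 in naive cells, below the median reporter; Cd4 and the other CD3 chains were not analysed here.

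The stages on either side place the difference between rested and naive cells. The comparisons with effector and memory Th1 cells use the same rested samples, so they are not independent of the comparison above, and values are given side by side. Rested and effector Th1 cells differed in 810 reporters (16.2%), memory and rested Th1 cells in 887 (17.8%). Vps37b stood at 6.84 ± 0.55 in naive, 3.53 ± 0.39 in effector, 3.70 ± 0.15 in rested and 6.46 ± 0.61 in memory Th1 cells. It was thus low in both cultured stages and high before and after them. Tsc22d3 took the same course, at 5.76 ± 0.33, 3.15 ± 0.50, 3.26 ± 0.15 and 5.41 ± 0.25 over these stages in that order. Nfkbia had 7.62 ± 0.15 in naive, 5.08 ± 0.07 in effector, 6.08 ± 0.27 in rested and 7.29 ± 0.09 in memory Th1 cells. Its rested level was above the effector level (limma, adjusted p = 0.0049). Naive 1 and 3 share array patterns with memory Th1 1 and 3, and no effector or rested Th1 sample shares them. A course that is high in naive and memory cells therefore cannot be told apart from these array patterns.

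Other genes had their extreme in the rested stage. Among the 20 largest rises, chosen as high in rested Th1, all but Igsf10, Hdac1 and 2610005L07Rik had their highest stage mean there. Igsf10 (7.24 ± 0.36), Hdac1 (7.33 ± 0.27) and 2610005L07Rik (6.32 ± 0.55) were highest in effector Th1 cells. Shisal1 stood at 2.71 ± 0.29 in naive, 2.30 ± 0.07 in effector, 6.45 ± 0.38 in rested and 2.97 ± 0.77 in memory Th1 cells. Fndc3a stood at 3.95 ± 0.43 in naive, 4.07 ± 0.32 in effector, 7.38 ± 0.36 in rested and 3.72 ± 0.21 in memory Th1 cells. Dnaja1 was lowest there, with 6.38 ± 0.07 in naive, 5.07 ± 0.29 in effector, 3.94 ± 0.35 in rested and 6.37 ± 0.30 in memory Th1 cells. Ifrd1 followed the order of Dnaja1. Gzmd had 1.11 ± 0.27 in naive, 2.72 ± 0.15 in effector, 3.74 ± 0.08 in rested and 1.38 ± 0.23 in memory Th1 cells. For Fndc3a, Dnaja1 and Gzmd the rested level differed from each of the other stages (adjusted p of 0.00332 or less). In both Lgals1 and Dnajc15 the naive mean was the lowest of the 4 stages: Lgals1 had 6.64 ± 0.25, 10.13 ± 0.09, 7.96 ± 0.17 and 7.60 ± 0.13 over the stages from naive to memory, and Dnajc15 had 3.66 ± 0.15, 5.57 ± 0.11, 5.91 ± 0.18 and 5.78 ± 0.66. The difference between memory and rested Th1 cells did not pass in either (adjusted p = 0.245 and 0.789), and memory against naive cells was not tested.

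**Figure D5:**
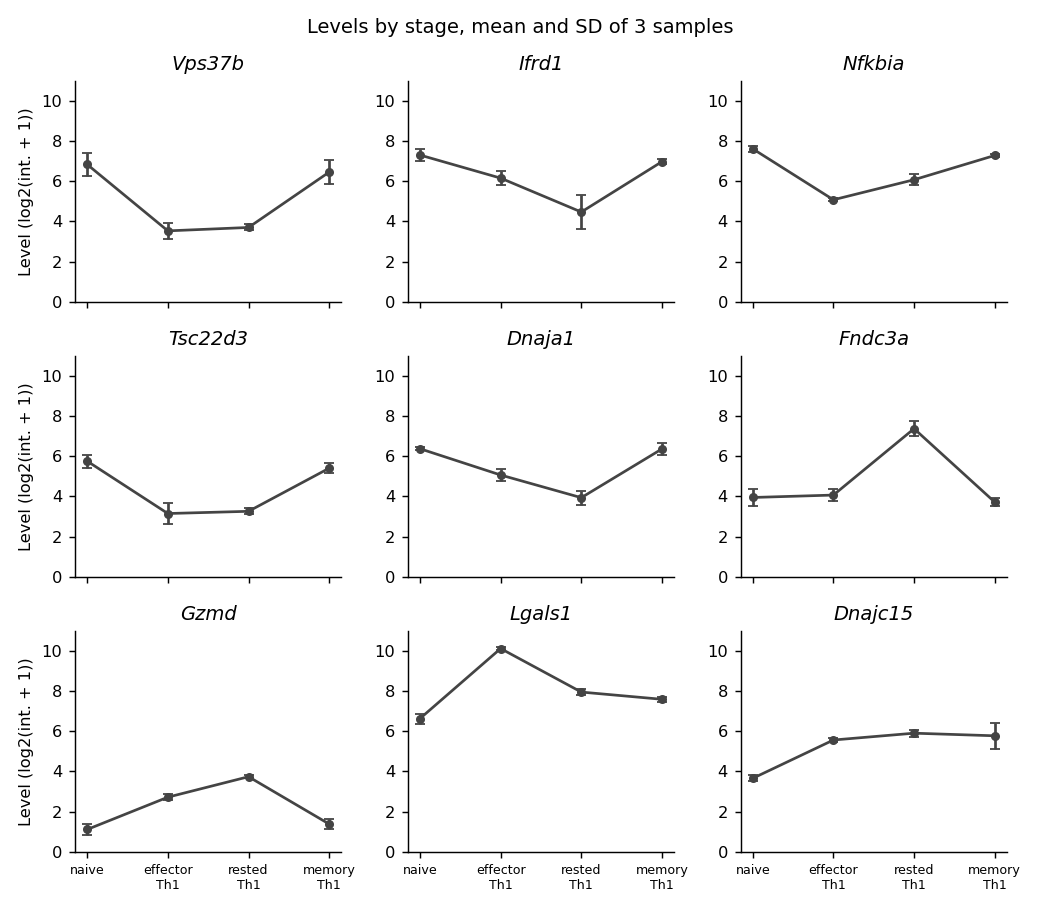
Levels (y axis, log2(intensity + 1)) of 9 genes in naive, effector Th1, rested Th1 and memory Th1 cells, as mean and SD of 3 samples a stage. Vps37b, Tsc22d3 and Nfkbia are high in naive and memory cells, of which samples 1 and 3 share array patterns. Fndc3a and Gzmd peak in rested cells, Dnaja1 and Ifrd1 are lowest there, and Lgals1 and Dnajc15 have their lowest mean in naive cells.

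By list, memory Th1 cells were higher than rested Th1 cells in 6 of 28 chaperones and lower in 1, higher in 7 of 30 proteasome genes and lower in 1, and higher in 6 of 38 ribosomal protein genes and lower in 0 by limma, against 10.2% of all genes higher and 8.61% lower. For early-response and feedback genes the counts were 4 higher and 3 lower of 17, and for translation factors 6 higher and 2 lower of 26. Memory and rested Th1 samples also share no array pattern, so these differences cannot be told apart from that pattern either.

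Rested Th1 and rested Th2 cells, which share the rest step and the array patterns, differed in 18 reporters (0.361%), all higher in rested Th1. None was lower by limma, with 247 lower at an unadjusted p below 0.05, and with the sample number as a block 75 were higher and 43 lower. The count depended on single samples: it was 1 without rested Th1 1, 43 without rested Th1 3 and 0 without rested Th2 2 or 3 by limma (347 and 262 at an unadjusted p below 0.05). In same-numbered samples 18.3%, 12.7% and 13.2% of spots had a rested Th1 to rested Th2 ratio equal to a single constant (within 0.004 on the log2 scale), against 0.417% to 0.480% for rested Th1 and naive samples. No source used here says how this came about, and such samples may not be independent. The fit for rested Th1 against naive cells also pools its spread over both rested groups as if their samples were independent. Examples of genes at close levels in both are Gzmd (3.74 ± 0.08 in rested Th1 and 3.82 ± 0.06 in rested Th2) and Nfkbia (6.08 ± 0.27 and 6.10 ± 0.36).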

How the data were processed

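Per the labels' protocols, 33P-labelled cDNA made with oligo(dT) from 5 to 15 µg of total RNA was hybridised to 1-channel arrays, and the authors deposited linear spot intensities for each of the 42 arrays. No source used here gives the image reader or any scaling done before deposit. Arrays were quantile-normalized together, 1 was added, log2 taken, and spots of a reporter, then arrays a and b, averaged. GEO's platform annotation named 3626 reporters with 1 gene, 172 with several and 1194 with none; 3605 symbols were updated through RefSeq. The test was limma 3.58.1 (R 4.3.3; lmFit and eBayes) over 7 groups of 3, called at a Benjamini-Hochberg adjusted p below 0.05 over 4992 reporters, so the number of arrays limits the precision. Tested on simulated data, it recovered 28% of reporters changed by 1 log2 unit and 88% of those changed by 2. It also called 9 reporters that had not been changed. Recovery where samples share array patterns or same-numbered samples are related, as may hold here, was not tested. Named genes are the 20 largest called rises and falls with non-overlapping groups and every called list member, a gene by its brightest reporter. The members and gene lists were chosen with earlier results of these data known. Deviations from the group means correlated at 0.282, 0.267 and 0.509 between same-numbered rested Th1 and naive samples. Between unlike-numbered ones they correlated at -0.3555 to 0.1585. The numbers may thus act as pairs, which the labels do not settle. The main fit took the samples as unpaired. The blocked fit was an alternative, beside other scalings, pseudocounts, arrays and left-out samples. Promoter windows were matched by symbol for 109 of 140 named genes. Sequences are RefSeq's.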

Additional observations from a re-analysis of the deposited data

Results flagged for a closer look

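Among the named genes, 7 stood higher in rested Th1 than in rested Th2 cells by the test of that difference (limma, adjusted over all 4992 reporters). All 7 were named for rises against naive cells in the same rested Th1 samples. The test is thus not independent of that choice, which favours a positive difference. Shisal1 differed by 1.89 ± 0.33, with means of 6.45 in rested Th1 and 4.55 in rested Th2 (adjusted p = 0.0164). Fndc3a differed by 1.55 ± 0.29 (adjusted p = 0.0192), Slc4a2 by 1.43 ± 0.24 (adjusted p = 0.0126) and Blzf1 by 2.14 ± 0.46 (adjusted p = 0.0448). Bbs7 differed by 1.99 ± 0.36 (adjusted p = 0.0183), Kank2 by 1.90 ± 0.32 (adjusted p = 0.0126) and Sparc, the stromal marker, by 1.69 ± 0.36 (adjusted p = 0.0448). Apart from Sparc (3.70 against 3.79), the rested Th2 means of these genes also lay above their naive means. Shisal1 had 4.55 in rested Th2 against 2.71 in naive cells, Fndc3a 5.83 against 3.95 and Slc4a2 5.25 against 3.77. No reporter was called in this comparison without rested Th2 2 or 3 by limma, with 347 and 262 at an unadjusted p below 0.05, and 1 was called without rested Th1 1.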

How the results depend on the processing

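The 523 reporters called between rested Th1 and naive cells were 325 with median centring, 268 with these 2 groups alone and 1082 with the sample number as a block, and 273 to 556 without 1 sample. The 18 called between rested Th1 and rested Th2 cells were 6 with median centring, 118 with the block and 0 to 43 without 1 sample. Against effector Th1 cells the 810 became 1362 with the block and 522 to 834 without 1 sample, the lowest without effector Th1 3. Between memory and rested Th1 cells the 887 became 1607 with the block and 555 to 882 without 1 sample, the lowest without memory Th1 3, with 579 without rested Th1 1. Of the memory calls 53.0% were higher in memory cells, and 63.5% with median centring; of the calls against effector cells 46.9% were higher in rested Th1, and 36.9% with median centring. The cause of these differences was not tested. None of the 140 named genes changed direction in any setting run. In each of them all samples of 1 group lay beyond all samples of the other. Fits without 1 sample, with the block or with 2 groups alone therefore could not reverse a direction. With the block, and with a variance trend and robust prior, 140 kept their call; with median centring 97 did, with 2 groups alone 79, with array a alone 117, with array b alone 97, and without naive 3, the lowest of the fits without 1 sample, 86. Array pattern and group cannot be told apart, the median difference over all reporters was -0.03 and -0.11 with median centring, and dim levels cannot be judged against an empty spot.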

Other observations

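Several genes outside the lists were called in both comparisons of rested Th1 cells described above; they were picked after their values were seen, and both comparisons use the same rested Th1 samples. Cat, which encodes catalase, differed by 2.33 from naive cells (adjusted p = 4.69e-06) and by 1.29 ± 0.26 from rested Th2 cells (adjusted p = 0.0271). B2m, the light chain of MHC class I, differed by 0.96 from naive cells (adjusted p = 0.00464) and by 1.03 ± 0.21 from rested Th2 cells (adjusted p = 0.0278). Timd2, a TIM family receptor gene, differed by 1.27 from naive cells (adjusted p = 0.00123) and by 1.24 ± 0.23 from rested Th2 cells (adjusted p = 0.0195). Pak4, a kinase downstream of Cdc42, differed by 2.06 from naive cells (adjusted p = 2.17e-05) and by 1.54 ± 0.26 from rested Th2 cells (adjusted p = 0.0126).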
